A study of Arabidopsis thaliana with 16 samples.

Results

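The NLR genes of Arabidopsis thaliana, which encode intracellular immune receptors, were examined for the ubiquitinated histone H2A mark (H2Aub) and for trimethylated lysine 27 of histone H3 (H3K27me3). The rule used the annotation and no measured value: a nuclear protein-coding gene was taken when its RefSeq TAIR10.1 product description contained NBS-LRR or NB-ARC, which gave 141 of 27444 genes. Chromatin immunoprecipitation sequencing (ChIP-seq) had been carried out on whole seedlings harvested at 12 days after germination. The wild type was Col-0, and the mutant was ubp5, a CRISPR/Cas9 deletion line made in Col-0 that lacks parts of the DUSP and UBP domains of the deubiquitinase UBP5. Each genotype had 3 H2Aub and 2 H3K27me3 libraries, all with a deposited peak list, and the 6 input samples were not used here. Only 1 ubp5 line was profiled for these marks.

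NLR receptors sense pathogen molecules, or the damage that pathogen effectors do to host proteins, and trigger local cell death and defence. A central NB-ARC domain binds ATP or ADP and switches the receptor on, leucine-rich repeats follow it, and the amino-terminal end carries either a TIR domain or a coiled coil (CC). H2Aub is set by Polycomb Repressive Complex 1 and H3K27me3 by Polycomb Repressive Complex 2, and UBP5 removes ubiquitin from H2A. Since NLR genes sit in tandem arrays of similar copies, short reads cannot always be placed on a single copy.

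The 141 genes comprised 91 of the TIR class, 25 of the CC class and 25 whose product description names neither. Chromosome 5 carried 52, chromosome 1 carried 43, chromosome 4 carried 27, chromosome 3 carried 15 and chromosome 2 carried 4. They were long genes, with a median of 4445 bp against 2078 bp for all nuclear protein-coding genes, and 128 of the 141 reached 3000 bp. A total of 97 lay within 50 kb of another member, in 32 groups, whereas 44 stood alone. In 18 members (12.8%) fewer than 90% of the 100-base windows occurred once in the nuclear genome, against 2.68% of all protein-coding genes. The annotation gives 21 of the members a symbol.

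The defining stretch of the family is the P-loop of the NB-ARC domain, the loop that grips the nucleotide. It was located in the coding sequence of 131 members, at a median of 970 bases after the annotated start. The stretches below show the 24 P-loop bases in capitals with 18 bases on each side, 5′ to 3′ on the coding strand (RefSeq TAIR10.1). They are shown because each marks a gene described later, and because the copies AT1G58848 and AT1G59218 are identical over all 60 bases.
RPP1 (AT3G44480), chr3:16094890-16094949, minus strand: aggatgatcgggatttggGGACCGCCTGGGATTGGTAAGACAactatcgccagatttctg
LAZ5 (AT5G44870), chr5:18115579-18115638, plus strand: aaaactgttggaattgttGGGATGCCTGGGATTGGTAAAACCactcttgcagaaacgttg
AT5G41540, chr5:16615270-16615329, minus strand: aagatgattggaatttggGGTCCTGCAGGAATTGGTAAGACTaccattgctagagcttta
RPS4 (AT5G45250), chr5:18325129-18325188, minus strand: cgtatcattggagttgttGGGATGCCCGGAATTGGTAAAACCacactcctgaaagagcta
RPM1 (AT3G07040), chr3:2228386-2228445, minus strand: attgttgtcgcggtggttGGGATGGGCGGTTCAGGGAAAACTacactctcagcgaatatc
AT1G58848, chr1:21792689-21792748, plus strand: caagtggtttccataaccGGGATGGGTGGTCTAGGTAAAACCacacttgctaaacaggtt
AT1G59218, chr1:21828947-21829006, plus strand: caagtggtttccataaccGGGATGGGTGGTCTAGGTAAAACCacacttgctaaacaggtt

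The lists differed in how much of the genome they covered. With peaks of a deposited score over 30 (the score is 10 times the −log10 q-value of a peak), the H2Aub lists covered 11.6, 15.4 and 21.2 Mb in Col-0 replicates 1 to 3 and 22.5, 10.9 and 27.8 Mb in ubp5 replicates 1 to 3. Col-0 replicate 1 and ubp5 replicate 2 were thus the shortest lists. The H3K27me3 lists covered 14.6 and 16.6 Mb in Col-0 versus 14.2 and 14.7 Mb in ubp5. The peak lists hold no reads per peak. In the reporting summary, uniquely mapped H2Aub reads were fewest for ubp5 replicate 2 and most for ubp5 replicate 3, which also had the shortest and the longest list. The part of depth in the extent called was not tested.

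H2Aub lay mainly at the starts of NLR genes, on more of them in ubp5 than in Col-0 in most libraries, though the replicates varied widely. A peak overlapped 40, 74 and 95 of the 141 members in Col-0 replicates 1, 2 and 3, and 99, 53 and 114 in ubp5 replicates 1, 2 and 3. The genotypes overlapped, because the low ubp5 replicate 2 fell among the Col-0 libraries. Col-0 libraries had a peak on 69.7 ± 27.8 members (SD, n = 3) and ubp5 libraries on 88.7 ± 31.8 (SD, n = 3). This log2 difference of 0.36 lay within the replicate spread (two-sided exact permutation test, p = 0.5, adjusted p = 0.583 over 7 tests). With 3 libraries against 3 the smallest p this test allows is 0.1.

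Members had less of their length under H2Aub than protein-coding genes as a whole. The share of summed member length under peaks was 6.98%, 11.6% and 18.3% in Col-0 versus 19.5%, 8.61% and 25.1% in ubp5, in replicate order. The same share over all protein-coding genes was 14.3%, 18.9% and 25.4% in Col-0 versus 28.1%, 14.6% and 32.6% in ubp5, higher in each of the 6 libraries. Protein-coding genes of at least 3000 bp, which resemble the members in length, had 7.42%, 10.5% and 15.0% in Col-0 versus 17.7%, 8.75% and 21.0% in ubp5, close to the members' shares. Covered length had a log2 difference (ubp5 minus Col-0) of 0.50 (exact permutation test, p = 0.4, adjusted p = 0.583), and coverage relative to all protein-coding genes one of 0.18 (exact permutation test, p = 0.5, adjusted p = 0.583). Neither difference exceeded the spread between replicates. Set against genes of at least 3000 bp, the relative coverage of the members differed by 0.007 on the log2 scale.

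**Figure D1:**
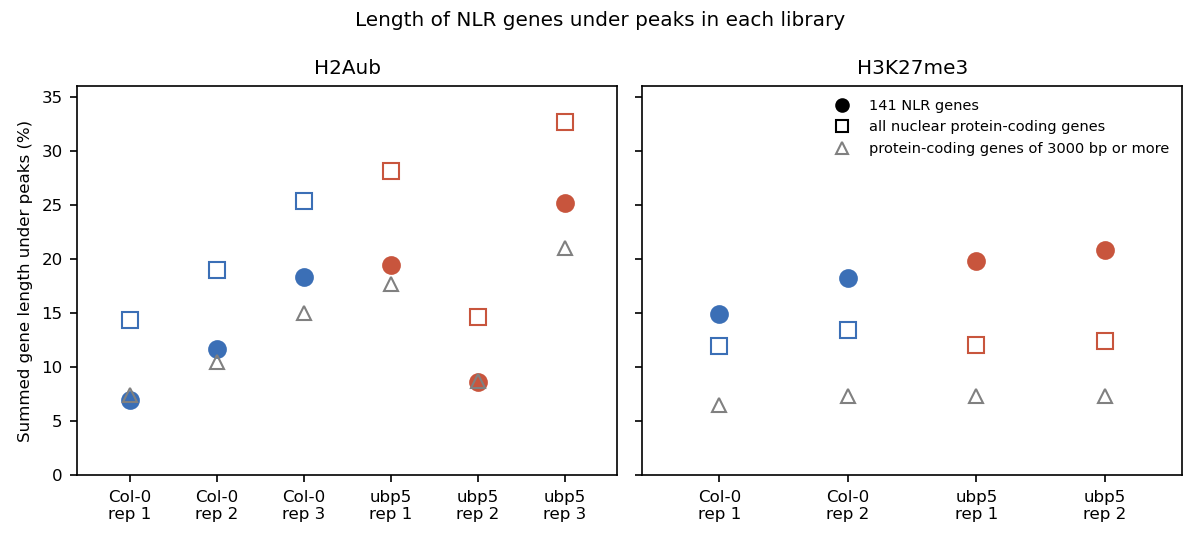
Share of summed gene length under peaks (vertical axis, %) in each library of H2Aub (left) and H3K27me3 (right), for the 141 NLR genes (filled circles), all nuclear protein-coding genes (open squares) and those of at least 3000 bp (grey triangles), with Col-0 in blue and ubp5 in red. The members lie below all protein-coding genes in each H2Aub library and above them in each H3K27me3 library, where they run from 14.9% to 20.8%.

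Along the gene, H2Aub on the members was concentrated towards the start. When each gene was divided into 10 equal parts, the first part was covered on average to 16.6%, 34.7% and 46.3% in the Col-0 libraries and to 50.3%, 22.7% and 59.5% in the ubp5 libraries. The seventh part was covered to 2.13%, 2.03% and 5.56% in Col-0 versus 7.15%, 2.27% and 13.6% in ubp5. Over all protein-coding genes the seventh part held 18.1%, 22.2% and 28.5% in Col-0 versus 26.3%, 13.9% and 30.1% in ubp5, where each part is a shorter distance because the genes are shorter. The first 500 bp of the members held 28.3%, 34.0% and 28.6% of their H2Aub length in Col-0 and 29.2%, 30.6% and 26.9% in ubp5, and the genotypes overlapped (log2 difference −0.06, exact permutation test, p = 0.7, adjusted p = 0.7). Over all protein-coding genes the first 500 bp held between 33.7% and 40.4%, more than on the members in each library.

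**Figure D2:**
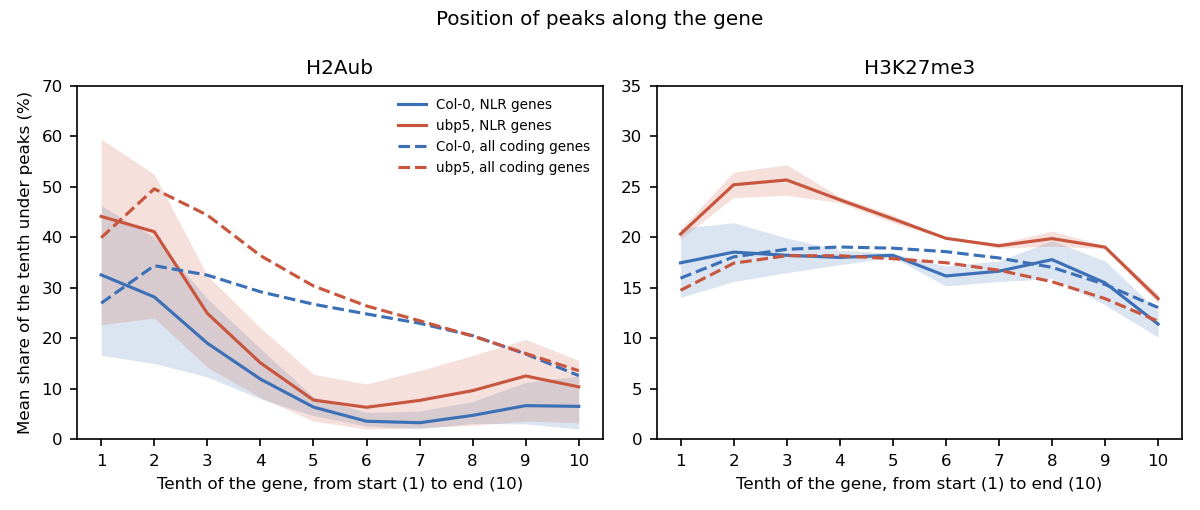
Mean share of each gene part under peaks (vertical axis, %) against position in 10 equal parts from the start to the end of the gene, for H2Aub (left) and H3K27me3 (right). Solid lines are means over the libraries for the NLR genes with bands from the lowest to the highest library, dashed lines are means for all protein-coding genes, Col-0 is blue and ubp5 red. On NLR genes H2Aub falls from the first part to the sixth or seventh, whereas H3K27me3 spans the gene.

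A gene was called marked in a genotype when a peak overlapped it by at least 1 bp in at least 2 libraries. The background given beside each count is the same count over all nuclear protein-coding genes, followed by that over the long genes of at least 3000 bp. By this rule 73 members carried H2Aub in Col-0 (51.8%, background 46.8%, long genes 44.1%) and 100 in ubp5 (70.9%, background 69.0%, long genes 76.3%). Both genotypes marked 70 of them (background 43.9%, long genes 42.1%). Members marked only in ubp5 numbered 30 (21.3%, background 25.1%, long genes 34.2%). Another 3 were marked only in Col-0 (2.13%, background 2.87%, long genes 2.00%), namely AT1G58807, AT2G14080 and RPP13. No member had a peak in all Col-0 and no ubp5 library (background 0.189%, long genes 0.0998%). The covered length was longer throughout ubp5, with no overlap between genotypes, in 16 members (11.3%, background 13.7%, long genes 20.0%) and shorter in 1 (0.709%, background 3.51%, long genes 2.64%).

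These counts depended on single libraries, and all protein-coding genes moved with them. Of the 30 gains, 5 were also called when the lists were reduced to the same covered length. That length, 10.9 Mb, was set by ubp5 replicate 2. The lists of ubp5 replicates 1 and 3 were cut to it from 22.5 and 27.8 Mb, and those of Col-0 from 11.6, 15.4 and 21.2 Mb. The gains numbered 61 without Col-0 replicate 2 (43.3%, background 37.3%) and 64 without Col-0 replicate 3 (45.4%, background 38.1%). They numbered 10 without ubp5 replicate 1 (7.09%, background 9.56%) and 10 without ubp5 replicate 3 (7.09%, background 9.45%). The members' share of gains was thus above the background in the first pair of settings and below it in the others and with all libraries. The losses went from 3 to 0 without Col-0 replicate 2 (background 1.23%) or replicate 3 (background 0.991%), to 30 without ubp5 replicate 1 (21.3%, background 16.3%) and to 31 without ubp5 replicate 3 (22.0%, background 16.4%). The longer members numbered 25 without Col-0 replicate 3 (17.7%, background 19.0%) and 48 without ubp5 replicate 2 (34.0%, background 36.9%). The shorter members numbered 15 without Col-0 replicate 1 (10.6%, background 8.81%), 3 without Col-0 replicate 2 (2.13%, background 4.86%), 2 without ubp5 replicate 1 (1.42%, background 4.35%) and 3 without ubp5 replicate 3 (2.13%, background 7.47%).

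The classes were compared by members marked and by length covered. Of 91 TIR members, 54 carried H2Aub in Col-0 and 74 did so in ubp5 (background 46.8% and 69.0%, long genes 44.1% and 76.3%). The counts were 11 and 13 of 25 in the CC class, and 8 and 13 of 25 among those named neither. The share of length under H2Aub in Col-0 was 7.37%, 12.1% and 19.9% in TIR members versus 7.96%, 15.0% and 18.0% in CC members. In ubp5 it was 22.2%, 10.6% and 27.3% in TIR members versus 15.5%, 5.84% and 21.0% in CC members. The median difference in mean covered length, ubp5 minus Col-0, was 264 bp over TIR members and 0 bp over CC members. It was 154 bp over all 141 members, 51.7 bp over all protein-coding genes and 234 bp over those of at least 3000 bp. The difference between classes was not tested.

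The 3 members with an H2Aub peak in every ubp5 and no Col-0 library were RPP1, AT5G22690 and AT4G16900, all of the TIR class, which is 2.13% of the members (background 4.70%, long genes 6.59%). RPP1, named for recognition of downy mildew, had 0 bp under H2Aub in all 3 Col-0 libraries and 1044, 901 and 878 bp in the ubp5 libraries. AT5G22690 had 0 bp in Col-0 and 785, 555 and 656 bp in ubp5, and AT4G16900, a neighbour of SNC1, had 0 bp in Col-0 and 641, 436 and 794 bp in ubp5. In each of the 3 genes the genotypes were fully separate, but none of the 3 gains was called at matched covered length.

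Among members whose genotypes did not overlap, the 3 with the largest difference in mean H2Aub length were AT1G72840, AT5G51630 and AT5G48770. AT1G72840 had 0, 457 and 1203 bp under H2Aub in Col-0 and 3088, 2014 and 4656 bp, its whole length, in ubp5. AT5G51630 had 0, 0 and 345 bp in Col-0 and 2322, 2710 and 2550 bp in ubp5. AT5G48770 had 0, 891 and 699 bp in Col-0 and 1675, 1445 and 2254 bp in ubp5. In all 3 genes every ubp5 library, replicate 2 included, was above every Col-0 library. AT5G51630 and AT5G48770 were also longer in ubp5 at matched covered length, whereas AT1G72840 was not.

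In 25 members (17.7%, background 23.1%, long genes 20.2%) all 6 libraries held an H2Aub peak, and in 22 (15.6%, background 18.5%, long genes 11.5%) none did. The longest mean coverage in Col-0 was on AT4G19520, with 3434, 4238 and 4476 bp in Col-0 and 3176, 420 and 3655 bp in ubp5. AT3G04220 was nearly constant, with 3224, 3303 and 3325 bp in Col-0 and 3242, 3173 and 3285 bp in ubp5, out of 3713 bp. AT3G51560 had 2955, 1759 and 2060 bp in Col-0 and 1868, 1522 and 2010 bp in ubp5. The genotypes overlapped in all 3 genes, in AT4G19520 only because ubp5 replicate 3 lay above Col-0 replicate 1.

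**Figure D3:**
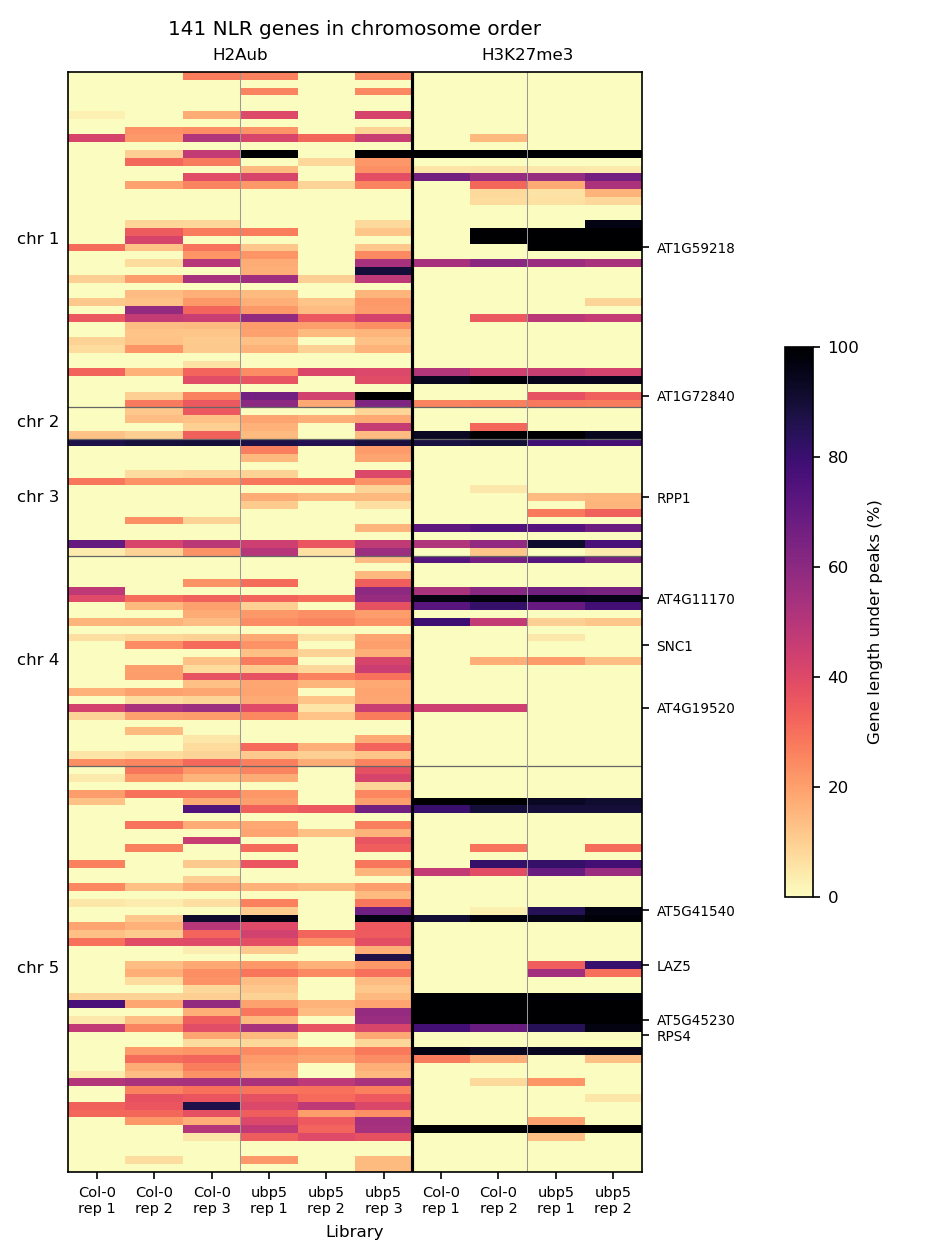
Share of gene length under peaks (colour scale, 0 to 100%) for each of the 141 NLR genes (rows, in chromosome order, chromosomes separated by lines) in the 6 H2Aub and 4 H3K27me3 libraries (columns). The H2Aub columns of Col-0 replicate 1 and ubp5 replicate 2 are sparse, and H3K27me3 covers some genes wholly, such as AT5G45230, in all 4 libraries.

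Of 37 receptors with a described function that were listed for this comparison, 29 were members. Col-0 marked 14 of the 29 with H2Aub and ubp5 marked 22, beside backgrounds of 46.8% and 69.0% (long genes 44.1% and 76.3%). Of the 29, 9 were gained (background 25.1%, long genes 34.2%), 1 was lost (background 2.87%) and 5 carried a peak in all 6 libraries (background 23.1%). Several receptors of bacterial effectors had little or no H2Aub in Col-0. RPM1, which guards the host protein RIN4, had 0 bp in Col-0 and 985, 0 and 772 bp in ubp5. SUMM2, which monitors a mitogen-activated kinase cascade, had 0 bp in Col-0 and 804, 0 and 783 bp in ubp5. In both genes ubp5 replicates 1 and 3 stood above all Col-0 libraries, and ubp5 replicate 2 did not. RPS2, another guard of RIN4, had 509 bp in Col-0 replicate 2 and 0 bp elsewhere. RPS6, by contrast, had 256, 978 and 1609 bp in Col-0 and 1186, 0 and 1051 bp in ubp5, and its genotypes overlapped.

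RPS4 and RRS1 form a head-to-head pair whose proteins act together to detect bacterial effectors. RPS4 had 0, 0 and 814 bp under H2Aub in Col-0 and 654, 0 and 793 bp in ubp5, and RRS1 had 0, 0 and 448 bp in Col-0 and 544, 0 and 526 bp in ubp5. The same 3 libraries therefore held the peak on both genes, and the genotypes overlapped. The pair shares a single peak, since the 29 bases from start site to start site lay under H2Aub in Col-0 replicate 3 and in ubp5 replicates 1 and 3. A second pair, AT5G45050 (TTR1 in the annotation, an NLR with a WRKY domain) and AT5G45060, behaved alike over its 66 bases in the same 3 libraries. The stretches are shown because they are the whole distance between the transcripts, with the start base of each gene in capitals, on the plus strand (RefSeq TAIR10.1).
RPS4 to RRS1, chr5:18326175-18326203: CtgagatttgagtggttgaatgtccaatG
AT5G45050 to AT5G45060, chr5:18181973-18182038: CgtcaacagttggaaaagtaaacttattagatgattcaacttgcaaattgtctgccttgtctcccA

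In contrast, the 417 bases from start to start of AT3G51560 and AT3G51570, and the 35 bases shared by the overlapping starts of AT4G36140 and AT4G36150, lay under H2Aub in all 6 libraries. The fifth divergent pair, AT3G14460 and AT3G14470, had no peak between its starts in any library. Over the window from 250 bases before to 50 bases after the start, the telobox letters AAACCCTA, on either strand, occurred in 9 members (6.38%) and in 6.22% of all protein-coding genes. The letters GAGAGAGA, on either strand, occurred in 6 members (4.26%) and in 8.38% of all protein-coding genes. Of the 30 members that gained H2Aub, 1 held each motif.

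Some receptors of other pathogens, and a helper receptor, carried H2Aub in both genotypes. RPP8 had 1443, 1923 and 1947 bp in Col-0 and 1866, 1105 and 1862 bp in ubp5. ADR1, a helper NLR that acts downstream of TIR receptors, had 1407, 711 and 1704 bp in Col-0 and 1394, 1068 and 1520 bp in ubp5. RLM1, which confers resistance to the fungus Leptosphaeria maculans, had 1153, 570 and 1129 bp in Col-0 and 850, 1457 and 1430 bp in ubp5. All 6 libraries held a peak on these genes and the genotypes overlapped. RPP13, another downy mildew receptor, had 0, 735 and 287 bp in Col-0 and 0 bp in all ubp5 libraries.

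The array around RPP5 and SNC1 on chromosome 4 held 8 members within 68.6 kb, and H2Aub peaks lay on 1, 4 and 6 of them in Col-0 and on 7, 5 and 7 in ubp5. SNC1, whose activated form keeps defence switched on, had 0, 1369 and 1779 bp in Col-0 and 1303, 0 and 1140 bp in ubp5. RPP5 had 0, 1347 and 2420 bp in Col-0 and 2414, 1688 and 1924 bp in ubp5, and RPP4 had 489, 618 and 696 bp in Col-0 and 1326, 458 and 1392 bp in ubp5. Both genotypes overlapped in all 3 genes. AT4G16920 and AT4G16960 of the same array were marked only in ubp5.

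H3K27me3 was confined to fewer NLR genes, but its peaks there were wider. The median width of peaks on members was 3954 and 2936 bp in Col-0 and 2077 and 2116 bp in ubp5, beside 946 to 1435 bp over the 6 H2Aub lists. A peak overlapped 29 and 44 members in Col-0 replicates 1 and 2, and 46 and 49 in ubp5 replicates 1 and 2. Col-0 libraries averaged 36.5 ± 10.6 members (SD, n = 2) and ubp5 libraries 47.5 ± 2.12 (SD, n = 2), a log2 difference of 0.41 (two-sided exact permutation test, p = 0.333, adjusted p = 0.583). With 2 libraries against 2 this is the smallest p the test allows, so no difference in this mark could pass the threshold. The genotypes did not overlap, although Col-0 replicate 2 came within 2 members of ubp5 replicate 1.

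Unlike H2Aub, H3K27me3 covered more of the members than of protein-coding genes as a whole. The share of summed member length was 14.9% and 18.2% in Col-0 versus 19.8% and 20.8% in ubp5, while over all protein-coding genes it was 12.0% and 13.4% in Col-0 versus 12.0% and 12.4% in ubp5. Coverage relative to all protein-coding genes was 1.25 and 1.36 in Col-0 versus 1.64 and 1.68 in ubp5, with no overlap of the genotypes (log2 difference 0.35 in ubp5 minus Col-0, exact permutation test, p = 0.333, adjusted p = 0.583). At matched covered length Col-0 replicate 2 turned below the background, with 10.9% of member length against 11.4% of all protein-coding genes, and the other 3 libraries stayed above it. The covered length itself had a log2 difference of 0.30 (exact permutation test, p = 0.333, adjusted p = 0.583). Over genes of at least 3000 bp the share was 6.52% and 7.34% in Col-0 versus 7.34% and 7.36% in ubp5, and set against these genes the relative coverage of the members differed by 0.21 on the log2 scale.

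The difference was larger in genes that are not unique in sequence. In the 123 members of at least 90% unique windows, 16.7% and 18.5% of the length lay under H3K27me3 in Col-0 versus 18.9% and 19.2% in ubp5, a log2 difference in covered length of 0.12. In the other 18, the share was 4.83% and 16.7% in Col-0 versus 25.1% and 29.8% in ubp5. Mean covered length was longer in ubp5 in 10 of those 18 and shorter in 1, against 22 longer and 19 shorter of the 123. The placement of reads among copies was not tested, since the peak lists hold no reads.

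By the rule of at least 2 libraries, H3K27me3 marked 29 members in Col-0 (20.6%, background 20.6%, long genes 11.7%) and 42 in ubp5 (29.8%, background 20.6%, long genes 13.6%). Both genotypes marked 27 (background 17.7%, long genes 10.2%). Members marked only in ubp5 numbered 15 (10.6%, background 3.00%, long genes 3.41%), a share above both backgrounds, and those marked only in Col-0 numbered 2 (1.42%, background 2.98%, long genes 1.48%). The covered length was longer throughout ubp5 in 13 members (9.22%, background 3.48%, long genes 4.09%) and shorter in 8 (5.67%, background 8.10%, long genes 4.96%). Of the 15 gains, 14 were also called when the lists were reduced to the same covered length. That length was set by ubp5 replicate 1, whose list stayed whole, and Col-0 replicate 2 was cut from 16.6 to 14.2 Mb. Matching thus took little from ubp5 and could remove few gains, so this count says little about how firm they are.

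Col-0 replicate 1, the H3K27me3 library with the fewest members under peaks, carried much of this. Without it the gains fell to 6 (4.26%, against 2.16% of all protein-coding genes), the losses numbered 8 (background 5.17%) and the shorter members 17 (background 13.0%). Without any other library the gains numbered between 15 and 21, against 2.93% to 4.01% of all protein-coding genes. The longer members numbered 24 without Col-0 replicate 2 (background 6.05%) or without ubp5 replicate 1 (background 5.32%), and the losses 1 without ubp5 replicate 1 (background 2.16%).

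All 15 gains lay in genes with another member within 50 kb, where 97 of the 141 members lie, and none in the 44 that stand alone. The CC class held 6 of them and the TIR class 9. In the CC class a peak overlapped 1 and 7 of 25 members in Col-0 versus 7 and 9 in ubp5, and in the TIR class 24 and 33 of 91 in Col-0 versus 35 and 36 in ubp5. Of the 15, 6 had fewer than 90% unique windows and 9 had more. The gains of AT1G58848, AT1G59124 and AT1G59218 came from a single peak in each ubp5 library, so the 15 are not independent of each other.

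**Figure D4:**
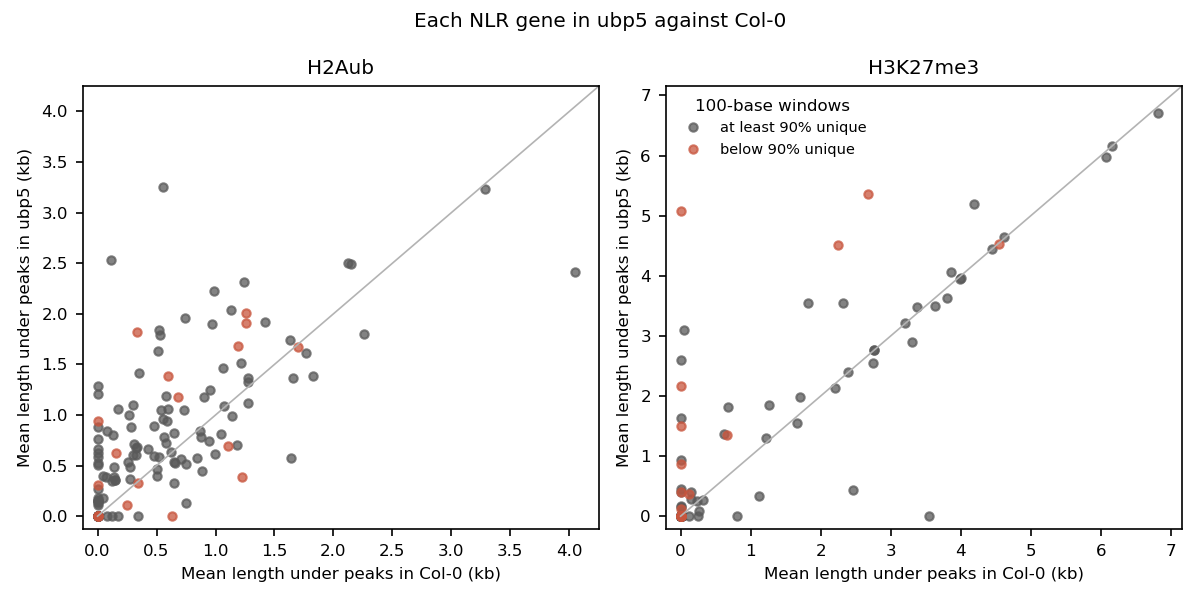
Mean length under peaks in ubp5 (vertical axis, kb) against Col-0 (horizontal axis, kb) for each of the 141 NLR genes, for H2Aub (left) and H3K27me3 (right), with the line of equal length. Red points are the 18 members with fewer than 90% unique 100-base windows. In H3K27me3 most genes lie on the line, and the highest red point at 0 kb in Col-0 is AT1G59218, at 5074 bp in ubp5.

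Among unique genes the largest gain of H3K27me3 without overlap was on AT5G41540, a TIR receptor. This gene had 0 and 96 bp under H3K27me3 in Col-0 and 2888 and 3294 bp in ubp5, out of 3405 bp. Its neighbour AT5G41550 was under the same peaks, of 7505 and 7987 bp in ubp5, and in Col-0 replicate 2 a peak of 4753 bp ended just inside the start of AT5G41540. The P-loop bases of AT5G41540 lay under H3K27me3 in both ubp5 libraries and in neither Col-0 library. The same gene had 0 bp under H2Aub in all Col-0 libraries and 355, 0 and 2286 bp in ubp5. The ubp5 libraries were thus higher for H3K27me3 without overlap, and for H2Aub except in replicate 2.

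LAZ5, whose overexpression causes cell death according to the annotation, had 0 bp under H3K27me3 in both Col-0 libraries and 1532 and 3670 bp in the ubp5 libraries. The peaks were weak, with a fold over background of 1.89 and 1.94, and the gain was the 1 of 15 not called at matched covered length. H2Aub was already at the start of LAZ5, with 0, 613 and 817 bp in Col-0 and 973, 737 and 971 bp in ubp5. AT5G45000, in the same group of 4 members, had 0 bp under H3K27me3 in Col-0 and 1199 and 656 bp in ubp5.

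There were 6 members with an H3K27me3 peak in all ubp5 and no Col-0 library (4.26%, background 2.09%, long genes 2.51%), namely AT1G59218, AT1G72840, RPP1, AT3G44670, LAZ5 and AT5G45000. AT1G72840, which had the largest of these H2Aub differences, also had 0 bp under H3K27me3 in Col-0 and 1720 and 1552 bp in ubp5. It was marked by H2Aub in both genotypes and by H3K27me3 only in ubp5. AT3G44670, on chromosome 3, had 0 bp in Col-0 and 1367 and 1643 bp in ubp5, with no H2Aub in any library. In this gene 76.9% of the windows were unique, and the peaks were weak, with a fold over background of 1.91 and 2.03.

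RPP1 had peaks of both marks on the same stretch in ubp5. H3K27me3 covered 0 bp in both Col-0 libraries and 837 and 904 bp in the ubp5 libraries. Its peaks there were weak, with a fold over background of 2.02 and 2.09, against medians of 2.44 and 2.73 over all peaks of these lists. The bases under peaks in all 5 ubp5 libraries of the marks ran over 797 bp, chr3:16094719-16095515, which is 963 to 1759 bp after the gene start, is 84.2% coding sequence and includes the P-loop bases printed above. Of the 100-base windows in this stretch, 39.1% occur once in the genome. RPP1, AT4G16920 and AT5G41540 were the 3 members marked by both marks in ubp5 and by neither in Col-0 (2.13%, background 0.813%, long genes 0.884%). At matched covered length the H3K27me3 gain was called in all 3 and the H2Aub gain in none. Matching took little from the H3K27me3 lists of ubp5 and much from the H2Aub lists of ubp5 replicates 1 and 3. AT4G16920 was not bare in Col-0, with 0 and 1319 bp under H3K27me3 there and 1632 and 1067 bp in ubp5. Its H2Aub length was 0, 0 and 991 bp in Col-0 and 2161, 0 and 3312 bp in ubp5. The genotypes thus overlapped in AT4G16920 for both marks.

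**Figure D5:**
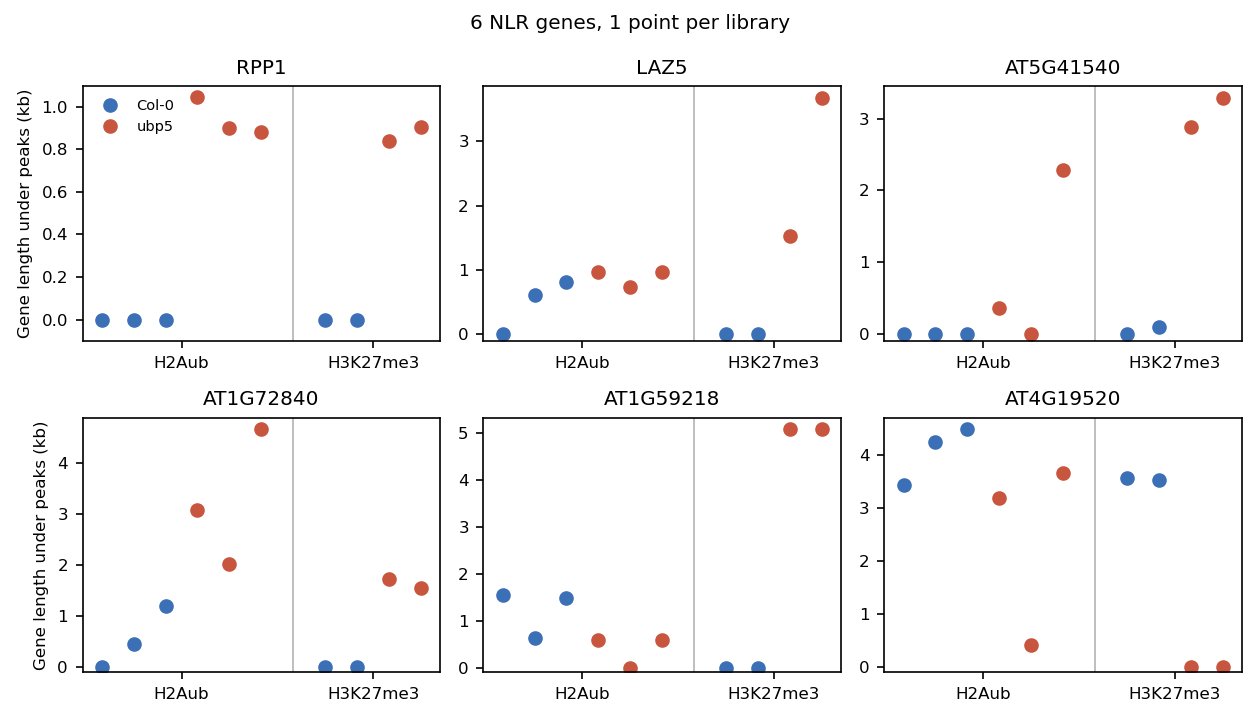
Gene length under peaks (vertical axis, kb) in each library for 6 NLR genes, H2Aub on the left of each panel and H3K27me3 on the right, with 1 point per library in replicate order, Col-0 in blue and ubp5 in red. RPP1 is at 0 kb in all Col-0 libraries of both marks, and AT4G19520 loses H3K27me3 from about 3.5 kb in both Col-0 libraries to 0 kb in ubp5.

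The largest values came from a duplicated array of CC receptors on chromosome 1. AT1G59218 had 0 bp under H3K27me3 in Col-0 and 5074 bp, its whole length, in both ubp5 libraries. AT1G58848 had 0 and 5363 bp in Col-0 and 5363 bp in both ubp5 libraries, AT1G59124 had 0 and 4506 bp in Col-0 and 4506 bp in both ubp5 libraries, and AT1G58807 had 4337 bp in ubp5 replicate 2 and 0 bp elsewhere. In ubp5 replicate 2 a single peak of 56.2 kb (chr1:21780245-21836427) lay over all 4. The genes are copies: every 100-base window of AT1G58807 (100%) is also in AT1G59124, and 98.0% of those of AT1G59218 are in AT1G58848, 36.3 kb away. A peak on AT1G58848 without one on AT1G59218, as in Col-0 replicate 2, therefore separates sequences that are nearly the same. AT1G59218 was also the only member with less H2Aub in every ubp5 library, at 1553, 636 and 1479 bp in Col-0 and 589, 0 and 586 bp in ubp5. AT1G58602, the longest member and part of the same group of 8, had no peak of either mark in any library.

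Losses of H3K27me3 were few. AT4G19520 had 3559 and 3528 bp in Col-0 and 0 bp in both ubp5 libraries, and it was 1 of 141 members with a peak in all Col-0 and no ubp5 library (0.709%, background 1.79%, long genes 0.841%). AT4G14370 fell from 3083 and 1829 bp in Col-0 to 396 and 465 bp in ubp5, while its H2Aub length was 607, 621 and 528 bp in Col-0 and 940, 992 and 886 bp in ubp5. AT5G46270 had 1399 and 845 bp in Col-0 and 0 and 675 bp in ubp5. In all 3 genes every ubp5 library was below every Col-0 library, and all 3 have over 90% unique windows. The peaks on AT4G19520 were weak in Col-0, with a fold over background of 2.01 and 2.02. The loss of AT4G19520 and of AT5G46270 was not called at matched covered length. Matching cut mainly the list of Col-0 replicate 2, from 16.6 to 14.2 Mb, and so removed weak Col-0 peaks. It therefore says little about these losses.

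Much of the H3K27me3 on the family was found in all libraries. In 27 members (background 17.7%, long genes 10.2%) all 4 libraries held a peak, and in 84 (59.6%, background 72.8%, long genes 82.3%) none did. In the array beside RPS4 and RRS1, 63.5% to 67.6% of the summed gene length lay under the mark across the 4 libraries. AT5G45200 had 6816 and 6816 bp in Col-0 and 6726 and 6674 bp in ubp5, AT5G45230 had 6157 bp, its whole length, in all 4 libraries, and AT5G45210 and AT5G45220 were covered wholly in all 4 as well. AT5G45240 had 4464 and 3918 bp in Col-0 and 4850 and 5530 bp in ubp5. The next genes in the array, RPS4 and RRS1, had 0 bp in all 4 libraries, so 5 of the 7 receptors were under the mark and the characterised pair was not.

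AT4G11170, named RMG1 in the annotation and induced by the bacterial peptide flg22, had 6029 and 6107 bp in Col-0 and 6015 and 5945 bp in ubp5, out of 6237 bp. Its H2Aub length was 2467, 1895 and 2076 bp in Col-0 and 2040, 1893 and 3558 bp in ubp5. WRR4, a receptor of white rust, had 311 and 338 bp under H3K27me3 in Col-0 and 283 and 255 bp in ubp5. All of this lay at the very end of the gene. In Col-0 it was the edge of peaks of 4242 and 3890 bp that ran on into the neighbour AT1G56520, as did the peak of 4188 bp in ubp5 replicate 2. RLM1 had 1781 and 1551 bp in Col-0 and 1607 and 1487 bp in ubp5. Of the 29 characterised members, H3K27me3 marked 2 in Col-0 (RLM1, and WRR4 by its end only) and 4 in ubp5 (also RPP1 and LAZ5). The background was 20.6% of all protein-coding genes in each genotype (long genes 11.7% and 13.6%). No library had an H3K27me3 peak on 22 of the 29 (background 72.8%, long genes 82.3%).

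Along the gene, the genotypes were furthest apart in H3K27me3 at the third of the 10 parts, which was covered to 16.5% and 19.9% in Col-0 versus 24.2% and 27.2% in ubp5, beside 17.7% and 19.9% in Col-0 versus 17.8% and 18.5% in ubp5 over all protein-coding genes. The first part was covered to 14.0% and 20.9% in Col-0 versus 19.8% and 20.8% in ubp5, and the eighth to 15.9% and 19.7% in Col-0 versus 19.1% and 20.6% in ubp5, so the genotypes overlapped at both. The P-loop lay under H3K27me3 in 22 and 30 of 131 members in Col-0 versus 33 and 37 in ubp5, and under H2Aub in 19, 28 and 43 in Col-0 versus in 46, 22 and 52 in ubp5. Untranslated exons made up 4.18% and 6.52% of the H3K27me3 length on members in Col-0 versus 6.54% and 6.46% in ubp5, against 14.7% of the annotated length of the members. In the H2Aub lists this share was between 10.5% and 15.4%.

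The marks shared some of their bases. Bases under H2Aub and under H3K27me3, each in at least 2 libraries, came to 17.3 kb on members in Col-0, which was 19.4% of their H3K27me3 length and 24.6% of their H2Aub length. Over all protein-coding genes these shares were 49.4% and 29.9%. In ubp5 the shared bases came to 38.5 kb, or 32.7% of the H3K27me3 length and 32.8% of the H2Aub length, against 54.2% and 22.5% over all protein-coding genes. The members' share was thus lower than that of other genes when taken of H3K27me3 in both genotypes, and higher when taken of H2Aub in ubp5.

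By gene, 19 members carried both marks in Col-0 (13.5%, background 14.2%, long genes 8.58%) and 34 in ubp5 (24.1%, background 15.3%, long genes 10.8%). The Col-0 count was 12 without H2Aub replicate 2 and 11 without H2Aub replicate 3, and the ubp5 count was 18 without H2Aub replicate 1 or replicate 3. These counts with a library left out are given without the share over all protein-coding genes in the same settings. They show dependence on single libraries only, and whether the members moved more than other genes was not tested. A total of 19 members had no peak of either mark in any library (13.5%, background 14.8%, long genes 9.89%).

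The genes that relay NLR signals were read in the same way. Of 18 such genes listed, none was under an H3K27me3 peak in any library, which held for 72.8% of all protein-coding genes. H2Aub lay on 6 of them in Col-0 (background 46.8%) and on 14 in ubp5 (background 69.0%), 8 of which were marked in ubp5 alone (background 25.1%). EDS1, the hub of TIR signalling, had 930, 694 and 679 bp under H2Aub in Col-0 and 692, 915 and 709 bp in ubp5, and its partner PAD4 had 505, 547 and 583 bp in Col-0 and 579, 491 and 607 bp in ubp5. The genotypes overlapped in both genes. RAR1 (PBS2 in the annotation), a co-chaperone of NLR receptors, had 0 bp in Col-0 and 2143 bp, its whole length, in all 3 ubp5 libraries. HSP90-2 (HSP81-2 in the annotation), encoding the chaperone that works with it, had 0 bp in Col-0 and 815, 1295 and 1025 bp in ubp5. The reverse was seen in SAG101, another partner of EDS1, with 1167, 1852 and 1842 bp in Col-0 and 983, 0 and 921 bp in ubp5. In these 3 genes the genotypes were fully separate. The same held for SGT1A, with 520, 591 and 574 bp in Col-0 and 791, 1176 and 1386 bp in ubp5. Of the 18 genes, 3 were thus longer throughout ubp5 (background 13.7%) and 1 was shorter (background 3.51%). RAR1 and HSP90-2 were the 2 with a peak in every ubp5 and no Col-0 library (background 4.70%).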

How the data were processed

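ChIP-seq peak lists of H2Aub (3 libraries per genotype) and H3K27me3 (2 per genotype) were used. Groups and replicate numbers came from the sample labels, and same-numbered libraries were not treated as pairs. Reads were aligned by the authors to TAIR10 with STAR 2.7.8a (versions from the submitters' processing notes and the methods), and they removed duplicates with Picard, kept uniquely mapped reads, as the methods state, and called broad peaks in each library with MACS3 3.0.0 against input. The printed mapping command however allows reads with many positions, in random order, so the treatment of repeated sequence is uncertain. Each deposited peak has a score of 10 times its −log10 q-value, a fold (ratio) of signal over background, and deposited −log10 p and −log10 q-values. All 4 depend on depth, and reads per peak are not in the lists. Only the H2Aub lists came filtered, so a score over 30 was required of all peaks.

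The bases of each gene (RefSeq TAIR10.1, same coordinates as TAIR10) under peaks were counted in Python 3.11.15 with NumPy 2.4.6. Library values were compared as log2 values by exact two-sided permutation tests, with Benjamini-Hochberg adjustment over 7 tests. Counts of members have no test and are read beside all 27444 nuclear protein-coding genes. The P-loop was located in the longest translated coding sequence as glycine, any, any, glycine, any, glycine, lysine, then serine or threonine. A window was unique when its 100 bases occurred once in the nuclear chromosomes on either strand. Named genes were, by rule, listed receptors with a described function, up to 5 members per mark and direction with a peak in all libraries of one genotype and none of the other, the 3 largest differences per mark and direction without overlap, the 3 longest mean coverages in Col-0 per mark, members gaining both marks, head-to-head pairs and a list of 18 relay genes. Array neighbours and copies of these were named after their values were seen, as were the members of counts of 5 or fewer. The members and lists were chosen with earlier results of these data known. Alternatives were other score thresholds, matched covered length, narrower member sets, gene extension, overlap and replicate rules, and leaving out libraries. Some receptors with known functions have no symbol in the annotation and are given by identifier. The replicates are described as biological by the study. Values of 1 listed receptor are not reported here.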

Additional observations from a re-analysis of the deposited data

How the results depend on the processing

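Of 217 alternative values of 17 results, 165 kept their direction or stayed within 1.5 times. The 2 criteria differ. For the 7 tests only the direction was judged, which 89 values kept and 2 reversed. For the 10 counts, 76 values stayed within 1.5 times and 50 moved further. The 7 tests could not pass the threshold under any setting, since the libraries are too few. The start share of H2Aub reversed, to a log2 difference of 0.035 at matched covered length and 0.021 without Col-0 replicate 2.

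With all deposited peaks, members with shorter H2Aub numbered 2 and members with both marks in Col-0 29. With a score over 60, the values were 8 longer and 0 shorter for H2Aub, and 8 in Col-0 and 13 in ubp5 for both marks. At matched covered length, H2Aub was gained in 17, lost in 10 and shorter in 2, H3K27me3 was lost in 1, longer in 21 and shorter in 5, and both marks lay on 8 in Col-0 and 11 in ubp5. In members of at least 90% unique windows, shorter H2Aub was 0 and gained H3K27me3 9. With peaks over at least 50% of the gene, 4 gained H2Aub, 6 gained and 0 lost H3K27me3, and 2 in Col-0 and 3 in ubp5 had both marks. Requiring every library gave 11 losses of H2Aub and both marks on 11 in Col-0 and 18 in ubp5. Using the 4 H2Aub libraries with the longest lists was an alternative chosen after seeing the data. It gave 33 gains (23.4%, background 25.9%) and 4 losses (2.84%, background 2.64%), 49 longer (34.8%, background 37.6%) and 15 shorter (10.6%, background 9.01%). The other counts of this paragraph are given without the share over all protein-coding genes. They show dependence on the rules only.

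Leaving out single libraries gave log2 ranges, for H2Aub, of 0.15 to 0.95 (covered length), 0.01 to 0.70 (members with a peak), 0.03 to 0.31 (relative coverage) and −0.11 to 0.02 (start share), and for H3K27me3 of 0.16 to 0.44, 0.11 to 0.71 and 0.29 to 0.41. Counts ranged, for H2Aub, from 10 to 64 gained, 0 to 31 lost, 16 to 48 longer and 1 to 15 shorter, and for H3K27me3 from 6 to 21, 1 to 8, 14 to 24 and 10 to 17. Both marks lay on 11 to 26 members in Col-0 and 18 to 40 in ubp5, given without the share over all protein-coding genes.

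Replicate numbers were taken as names only: deviations of same-numbered libraries correlated at −0.13, 0.07 and 0.30 for H2Aub and 0.13 for H3K27me3 over all protein-coding genes. With a replicate block (sign-flip permutation), the log2 differences were as in the unpaired tests, 0.50, 0.36, 0.18 and −0.06 for H2Aub and 0.30, 0.41 and 0.35 for H3K27me3, with exact p between 0.5 and 0.75.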
